A study of Mus musculus with 19 samples.

Results

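The genes of the mouse TET family, Tet1, Tet2 and Tet3, lie within 3 genomic windows on which deposited peaks of 5-hydroxymethylcytosine (5hmC) were read. The windows, called loci here, were chr10:62260000-62380000 (Tet1), chr3:133115000-133220000 (Tet2) and chr6:83305000-83420000 (Tet3) on the mm9 build. Every deposited peak that overlapped a locus was a member. There were 810 such peaks among 1601520 in 18 lists, with 274 at Tet1, 212 at Tet2 and 324 at Tet3. They merged into 152 regions, 55 at Tet1, 46 at Tet2 and 51 at Tet3, when peaks that shared at least 1 bp were joined across lists. Merged regions had a median length of 436.5 bp (198 to 2300 bp).

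TET enzymes are dioxygenases that oxidise 5-methylcytosine to 5hmC and further products, using iron and 2-oxoglutarate, and ascorbic acid is known to raise their activity. 5hmC is an intermediate of DNA demethylation, and in many cell types it lies in the bodies of transcribed genes and at enhancers. Tet1 and Tet2 are the family members known to be abundant in mouse embryonic stem cells, and Tet3 is best known from the oocyte and early zygote. Tet1 and Tet3 proteins carry a CXXC zinc finger that binds CpG-rich DNA, whereas in Tet2 that domain is encoded by the separate neighbouring gene Cxxc4. The loci thus hold genes whose products write the mark that was measured.

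Mapping was done on pre-iPSCs, stalled intermediates of reprogramming derived from mouse embryonic fibroblasts, on their way to induced pluripotency. Ascorbic acid and 2i, which is CHIR-99021 (a GSK3 inhibitor) with PD-0325901 (a MEK inhibitor), are given as the treatment of every library, those of day 0 included. The groups were wild-type cells (WT) at days 0, 2 and 10 (D0, D2, D10) with replicates A, B and C, and knockout cells (KO) on the same days with KO1 and KO2. Lists of mouse embryonic stem cells (mESC, line V6.5) at 0, 12 and 72 hours had 1 library each. The labels name neither the gene removed in the KO cells nor the method, and run names inside the deposited lists differ between KO1 ("CrisprKO") and KO2 ("CKO-H"), so that both were taken as 1 arm from their titles alone. Peaks on DNA cannot check which gene was targeted, nor the cell type, since no expression was measured. A label states that peaks were not called for the mESC samples although lists for them exist. Whether replicates came from separate cultures is not given in the labels, and p-values thus cover the spread between these libraries, which may be technical.

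Lists were of unequal length. WT lists ranged from 61975 to 115652 peaks on D0, from 106093 to 161004 on D2 and from 55134 to 86465 on D10. KO lists held 61125 to 138474 and mESC lists 24130 to 33576. Read depth was not used here. Tests therefore used lists shortened to equal length, the 55130 peaks with the highest -log10 p (the authors' value) in each, and the bp they covered, scaled to the mean total per library. Run names fall into styles that go with the samples, namely WT A, WT B with KO1, and WT C with KO2, and the run name of WT D0 C lacks the word input that the other 17 carry. Those of WT B and KO1 hold the word All ("WT_All", "CrisprKO_All"). If it means pooled reads, these lists are not independent replicates, and the tests treated them as such.

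All 3 loci held 5hmC peaks in every pre-iPSC library. Tet1 held 14, 21 and 9 peaks in WT D0 A, B and C, 35, 25 and 16 in D2 A, B and C, and 15, 11 and 3 in D10 A, B and C. In the same order, Tet2 peaks numbered 14, 20 and 10 on D0, then 15, 19 and 15 on D2, then 12, 8 and 2 on D10. Tet3 peaks numbered 15, 24 and 10 on D0, then 32, 31 and 25 on D2, then 16, 14 and 11 on D10. D2 libraries were the highest of each letter at Tet1 and Tet3, and at Tet2 WT B had 20 peaks at D0 against 19 at D2. KO1 and KO2 held 14 and 13 peaks at Tet1 on D0, 29 and 20 on D2, and 18 and 14 on D10. At Tet2 they held 8 and 10, 18 and 16, and 15 and 16, and at Tet3 17 and 18, 27 and 26, and 18 and 33. Peak number at the loci moved with list length: the loci took between 0.029% (WT D10 C) and 0.0638% (KO1 D0) of the peaks of a pre-iPSC list.

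**Figure D1:**
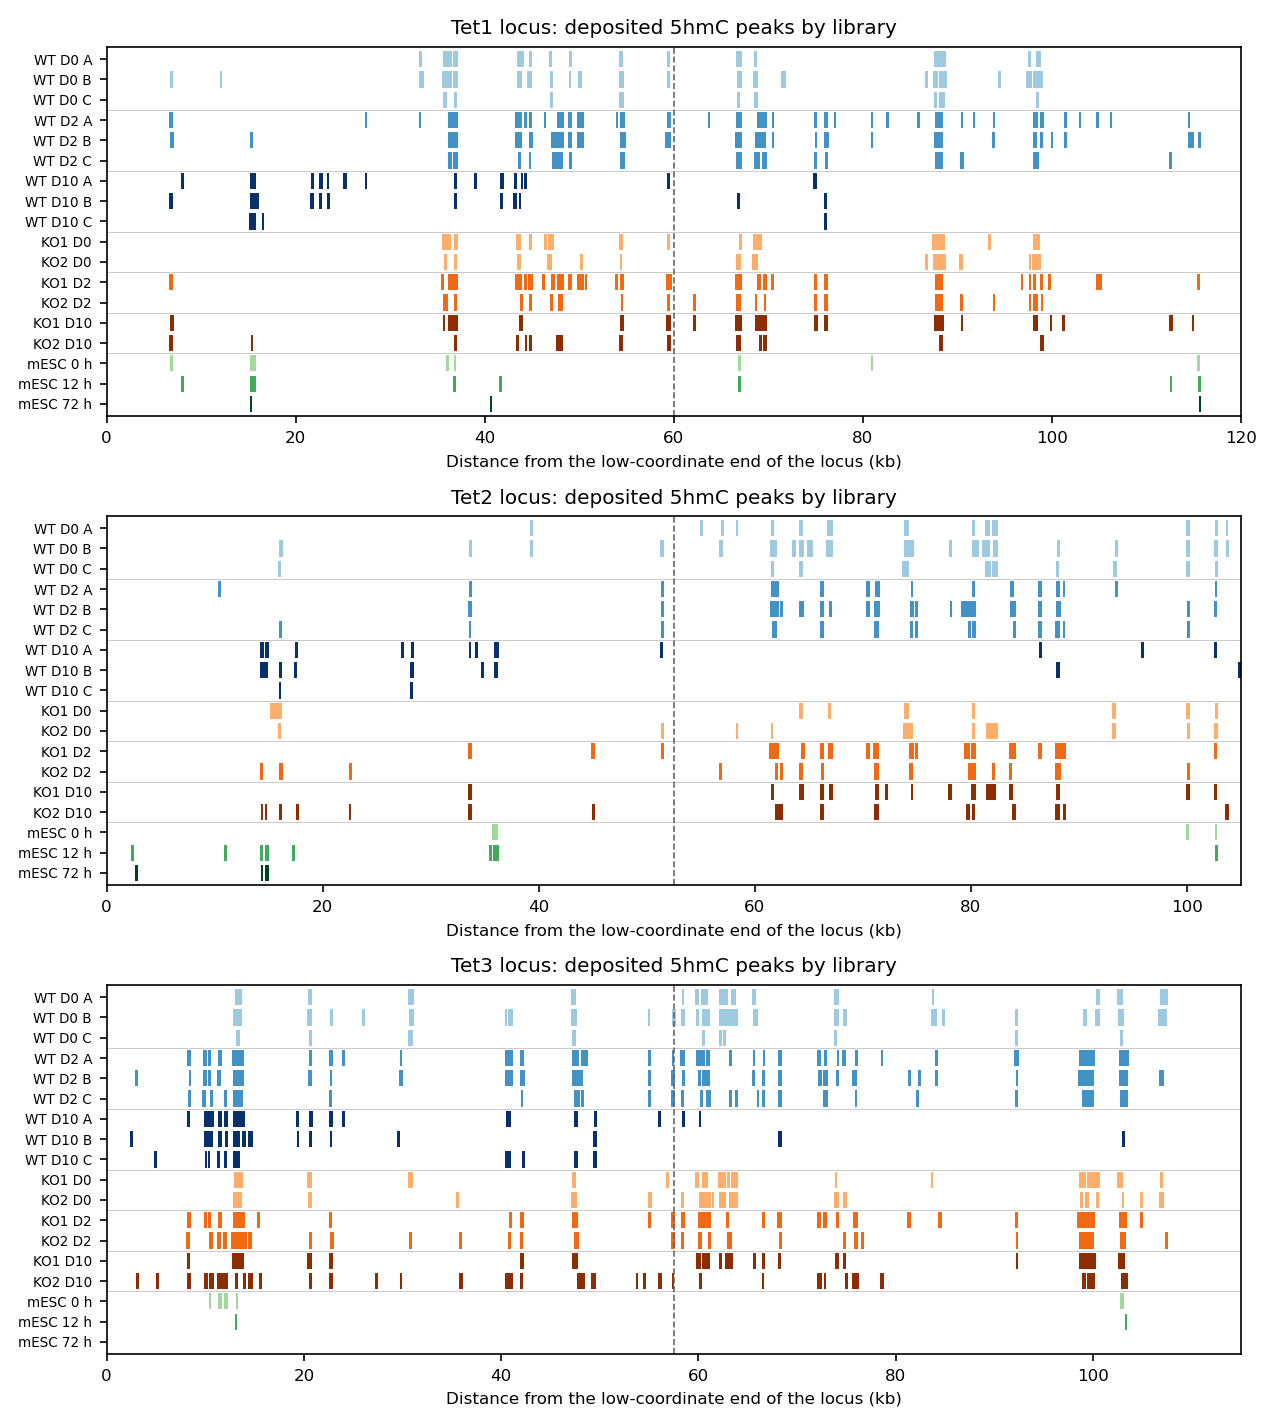
Deposited 5hmC peaks at the Tet1, Tet2 and Tet3 loci. Each row is 1 of the 18 libraries, the x axis is the distance in kb from the low-coordinate end of the locus, each bar is a peak (drawn at least 0.25 kb wide), and the dashed line is the midpoint. WT D10 rows have few peaks to the right of the midpoint, where WT D0, WT D2 and all KO rows have many.

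Cover by equal-length lists was above the genome's typical level at each locus. In the 15 pre-iPSC libraries the loci lay between the 57th (Tet2 in WT D10 C) and the 97.8th percentile (Tet3 in KO2 D10) of 19890 tiles of 100 kb, per unit length. These were the tiles that the strongest peaks of at least 1 pre-iPSC library covered. Per 100 kb, WT libraries at D0 had 4234 ± 1226 covered bp at Tet1, 3885 ± 789 at Tet2 and 5141 ± 1401 at Tet3 (SD, n = 3 each). At D2 the values were 5143 ± 723, 2924 ± 681 and 5042 ± 804, and at D10 they were 2794 ± 1211, 2070 ± 1225 and 4455 ± 552. Tet3 was the highest and Tet2 the lowest locus at D0 and D10, although at D0 the ranges of all 3 overlapped. At D10 every Tet3 value lay above every Tet1 and Tet2 value, and the ranges of Tet1 and Tet2 overlapped.

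Over the time course, Tet1 cover was highest at D2 and lowest at D10. Scaled cover at Tet1 was 6442, 5281 and 3520 bp in WT D0 A, B and C, 5404, 7114 and 5997 bp at D2, and 3886, 4464 and 1708 bp at D10. No D10 library reached the lowest D2 library. On the log2(covered bp + 200) scale Tet1 fell by 0.93 from D2 to D10 (SE 0.32, limma, Benjamini-Hochberg adjusted p = 0.0346 over 10562 loci and tiles), where 20.2% of all rows were called lower and 18.4% higher, and the median of all rows was -0.06. Within A, B and C the D10 minus D2 difference at Tet1 was -0.46, -0.65 and -1.70. The call was lost without WT D2 A, B or C or WT D10 C, with a difference of -0.54 without the last, and with no filter on cover (adjusted p = 0.0581). An exact permutation F test over the 3 days gave p = 0.0929 at Tet1 (280 assignments, smallest possible p 0.00357).

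Tet2 and Tet3 passed no test between WT days at the scale of the whole locus. From D0 to D2 the differences were 0.30 (SE 0.32) at Tet1, -0.40 (SE 0.41) at Tet2 and -0.0019 at Tet3 (SE 0.24), with limma adjusted p of 0.52, 0.502 and 0.999, where 11.2% of rows were called higher and 12.9% lower. Tet2 cover was 3774, 3446 and 5017 bp at D0, 2249, 3553 and 3408 bp at D2, and 2522, 3248 and 749 bp at D10, in the order A, B and C. Every D10 value at Tet2 was below every D0 value, and the D10 minus D0 difference was -1.03 (SE 0.41, limma adjusted p = 0.0522), where 26.3% of rows were called lower and 19.9% higher. Tet3 cover was 6299, 7294 and 4142 bp at D0, 6716, 5813 and 4866 bp at D2, and 5650, 4418 and 5301 bp at D10, and the days overlapped. Its D10 minus D0 difference was -0.17 (SE 0.24, limma adjusted p = 0.573). Exact permutation F tests over the days gave p = 0.118 at Tet2 and 0.693 at Tet3. With all deposited peaks and no scaling, the D10 minus D2 difference was -1.62 at Tet2 and -1.37 at Tet3 (limma adjusted p = 0.00859 and 0.0173), where the median of all rows was -1.15.

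**Figure D2:**
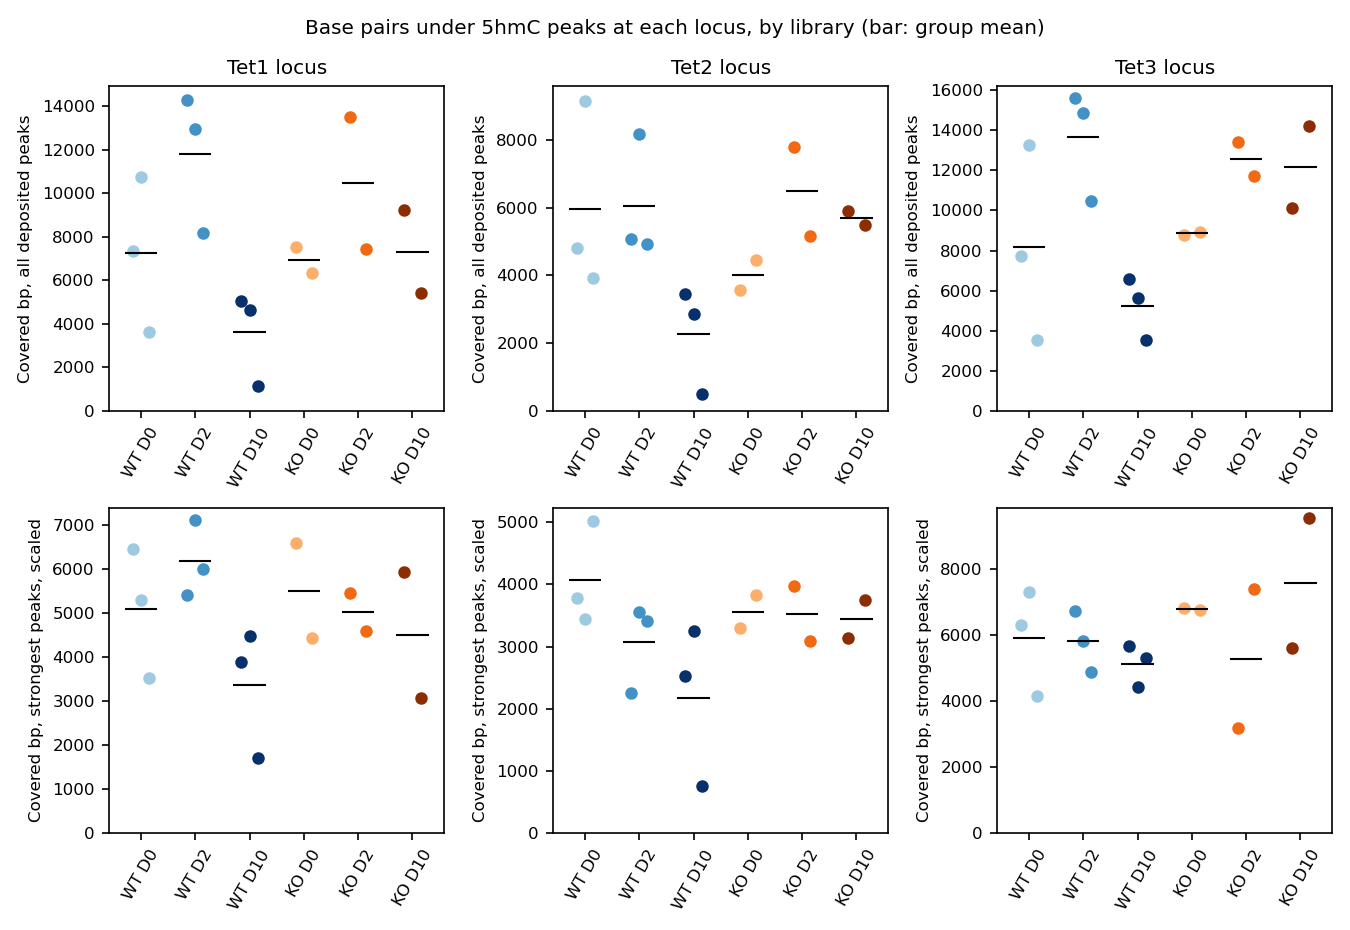
Base pairs under 5hmC peaks per library at each locus, with all deposited peaks in the upper row and the scaled strongest peaks in the lower row. Points are libraries and bars are group means. At Tet1 the scaled D10 values of WT, 1708 to 4464 bp, all lie below the D2 values, 5404 to 7114 bp.

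In WT cells the peaks of D10 lay mostly on the low-coordinate side of each locus. The loci were divided at their midpoints after the peaks had been seen, so the shares are a description with no test. Summed over replicates, the low-coordinate side of Tet1 took 52.2% of covered bp in WT at D0, 46.7% at D2 and 87.5% at D10. At Tet2 it took 9.73%, 12.4% and 80.2%, and at Tet3 34.1%, 44.6% and 93.3%. Single WT D10 libraries had 92.1%, 84.7% and 78.6% at Tet1 in A, B and C. They had 77.8%, 79.6% and 100% at Tet2, and 92.8%, 89.6% and 100% at Tet3. At each locus the lowest of these was above the highest WT library of D0 or D2, which was 58.2% at Tet1, 16.7% at Tet2 and 47.5% at Tet3. The D10 minus D2 difference was 40.8 percentage points at Tet1, 67.8 at Tet2 and 48.6 at Tet3. Of 9218 tiles of 100 kb with at least 1500 bp summed over the 3 libraries of each WT day, 10.7%, 1.25% and 6.14% moved at least as far in either direction, and the median tile moved 15.4 points.

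In KO cells the low-coordinate side took 44.3% at Tet1, 20.01% at Tet2 and 53.6% at Tet3 on D10. KO1 and KO2 had 34.1% and 61.8% at Tet1, 5.59% and 35.5% at Tet2, and 33.8% and 67.7% at Tet3. KO2 was the higher line at each locus, and both lines were below every WT D10 library. On D0 the KO values were 41.8%, 20.7% and 29.4%, and on D2 49.8%, 14.0% and 45.1%, for Tet1, Tet2 and Tet3. RefSeq lists all 3 genes on the minus strand (GRCm38.p6), so that transcription runs from the high-coordinate to the low-coordinate side. Start sites, exons and introns were not placed on the mm9 peaks, since no annotation of that build was used here. In the same table the neighbouring protein-coding genes are Ccar1 and Slc25a16 for Tet1, Ppa2 and Cxxc4 for Tet2, and Bola3 and Dguok for Tet3.

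**Figure D3:**
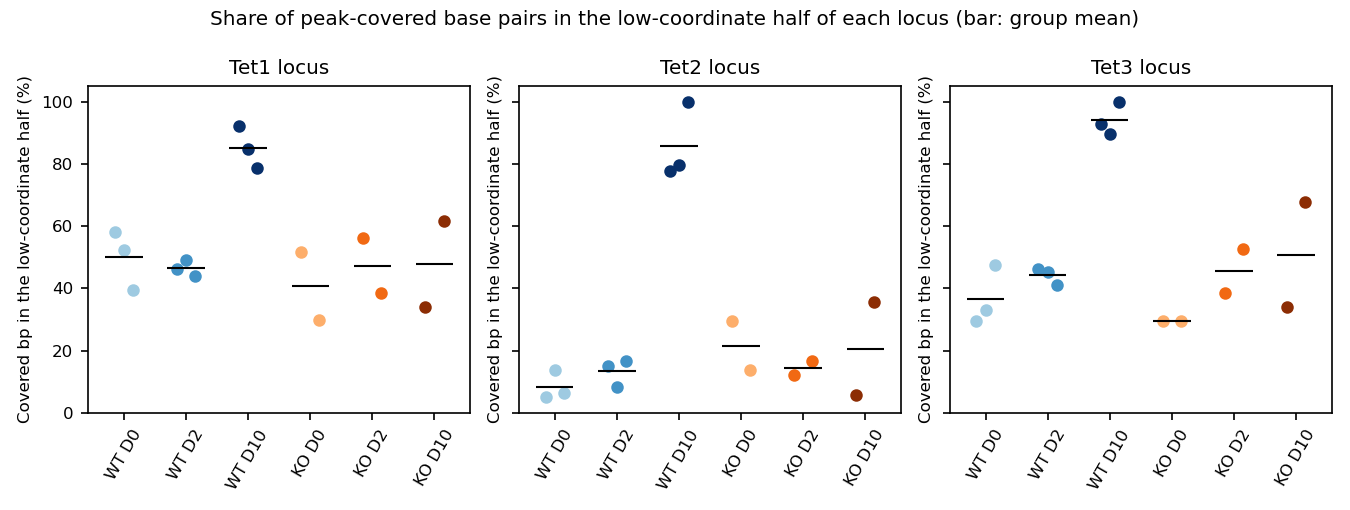
Share of peak-covered bp on the low-coordinate side of each locus midpoint, in percent, with all deposited peaks. Points are libraries and bars are group means. WT D10 libraries lie between 77.8 and 100%, above every other pre-iPSC library at their locus.

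To place these differences, windows of 10 kb over the whole genome were tested by limma on the same scale. The loci hold 33 such windows in full, 12 at Tet1, 10 at Tet2 and 11 at Tet3. A window entered where its cover averaged 500 bp or more over the libraries, as 11 of the 33 did among WT libraries, so one with short cover on a single day was not tested. Windows at 0 bp on D10 passed through their cover on the earlier days, and the counts over windows are therefore a description. The p-values of windows called lower at D10 are a description for the same reason. With no filter on cover, 28 calls of windows were kept, KO contrasts and interactions included, and 1 was lost. Between D2 and D10, 8 of the 11 were called lower and 1 higher, where 32.6% and 13.8% of 15782 windows of the genome were called lower and higher, with a median of -0.60. Between D0 and D10, 7 were called lower and 1 higher (26.9% and 22.3% of the genome, median -0.19). Between D0 and D2, 2 were called higher and 1 lower (14% and 3.07%, median 0.36). The called windows are given by locus. Where all WT D10 libraries were at 0, the log2 difference depends on the added 200 bp and is no fold change.

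At Tet1 the difference between D2 and D10 was largest in size at chr10:62320001-62330000, while that between D0 and D10 was larger in the other called windows of the locus. Strongest peaks covered 613, 800 and 555 bp there in WT D0 A, B and C, 1465, 1656 and 1768 bp in D2, and 0 bp in all 3 D10 libraries. The window was thus higher at D2 than at D0 and had no cover from these lists at D10. Its group means were 656, 1630 and 0 bp, so that it passed the minimum only through D2, the day on which it was high. The difference was 1.10 from D0 to D2 (SE 0.29, limma adjusted p = 0.0297) and -3.19 from D2 to D10 (SE 0.29, limma adjusted p = 4e-05). The D0 to D2 rise was not called with all deposited peaks (limma adjusted p = 0.163), with the replicate block (0.0635), or without WT D0 A or any 1 of the WT D2 libraries (0.0535 to 0.0844). In the full lists WT D10 B alone kept a peak in the window, of 332 bp.

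Further windows of Tet1 fell as well. At chr10:62340001-62350000 scaled cover was 1319, 664 and 1425 bp at D0, 763, 811 and 906 bp at D2, and 0 bp in all D10 libraries, in strongest as in all deposited peaks (D10 minus D2 -2.36, SE 0.34, limma adjusted p = 0.000458). The next window, chr10:62350001-62360000, likewise had no D10 peak in any WT list, after 469, 902 and 908 bp at D2 (-2.22, SE 0.42, limma adjusted p = 0.00257). Its group means were 750, 760 and 0 bp, just enough to pass the minimum, and without WT D2 B or C its cover was under it. At chr10:62290001-62300000 the difference was -1.81 (SE 0.51, limma adjusted p = 0.0176), from 997, 943 and 571 bp at D2 to 413, 0 and 0 bp at D10. That call was lost without WT D2 A or B or WT D10 B or C, with adjusted p between 0.0582 and 0.0599. Group means of this window were 1168, 837 and 138 bp, and those of chr10:62340001-62350000 were 1136, 827 and 0 bp. Each of these windows passed the minimum only with D0, its highest day.

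Tet1 also held a site that, among pre-iPSC libraries, the strongest peaks covered only in WT at D10. At chr10:62270001-62280000 strongest peaks covered 843, 1290 and 1342 bp in WT D10 A, B and C and 0 bp in all D0, D2 and KO libraries. Its mean was under the minimum for testing, and in the fit without that filter the D10 minus D2 difference was 2.74 (SE 0.25, limma adjusted p = 0.00028). The site was picked after its values were seen, so this p-value is a description. In the full lists WT D0 B and WT D2 B had 261 and 241 bp there, KO2 D10 had 244 bp, and mESC lists had 619, 610 and 278 bp at 0, 12 and 72 hours. The cover formed the region chr10:62275104-62276158, the strongest Tet1 peak of each WT D10 library (-log10 p 19.9, 14.7 and 16.4 in A, B and C). It was the only region of the 3 loci with a peak in all 3 WT D10 and all 3 mESC lists. WT D2 B also had a deposited peak in it, so the region was counted as gained from D0 but not from D2.

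At Tet2 the called windows were adjacent. At chr3:133190001-133200000 strongest peaks covered 1346, 1446 and 1380 bp in WT D0, 622, 357 and 947 bp in D2 and 0 bp in D10. Group means were 1390, 642 and 0 bp, so that the window passed the minimum only with D0, its highest day. The D10 minus D0 difference was -2.99 (SE 0.34, limma adjusted p = 0.000115), and D10 minus D2 was -2.01 (SE 0.34, limma adjusted p = 0.00118). At chr3:133180001-133190000 cover was 1006, 1309 and 731 bp at D0, 335, 855 and 1053 bp at D2, and 0 bp at D10 (D10 minus D0 -2.58, SE 0.39, limma adjusted p = 0.000589). Group means of this window were 1015, 748 and 0 bp, so that it too passed the minimum only with D0, its highest day. No WT D10 list had any deposited peak in either window. The region chr3:133195038-133195721 inside the former held the strongest peak of the Tet2 locus in any list, in KO1 D10 (-log10 p 51.9). It was present in 11 lists, 5 of them WT D0 or D2 and 6 of them KO, and absent from all WT D10 and mESC lists.

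A region of Tet2 was gained at D10 on the low-coordinate side of the midpoint. The region chr3:133143067-133143433, of 367 bp, had a peak in all 3 WT D10 lists and in no other list. The regions chr3:133129192-133130047 and chr3:133150678-133151291 had peaks in 2 of the 3 WT D10 lists each, in no WT list of D0 or D2, and in 2 mESC lists each. The former was also present in KO2 on D2 and D10. On the high-coordinate side, chr3:133210789-133211024 and chr3:133219762-133219990 had a peak in WT D10 A and WT D10 B alone, respectively. These 4 regions were chosen after their values were seen. WT D10 C had only 2 peaks at the Tet2 locus, both on the low-coordinate side.

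At Tet3 a window rose while others fell. At chr6:83310001-83320000 strongest peaks covered 700, 720 and 496 bp in WT D0, 1739, 927 and 1259 bp in D2 and 3461, 3061 and 2609 bp in D10. Each D10 value was above every earlier value. The D10 minus D0 difference was 1.95 (SE 0.26, limma adjusted p = 0.000303). The D10 minus D2 difference was 1.13 (SE 0.26, limma adjusted p = 0.00703) with lists of equal length but 0.10 (adjusted p = 0.829) with all deposited peaks, which covered 2729, 2441 and 2174 bp at D2 and 3261, 3213 and 1732 bp at D10. Inside this window lay chr6:83317650-83319212, the region with a peak in the most lists (17 of 18, absent from mESC 72 h). It was the only region of the 3 loci present in all 9 WT libraries. Its neighbours chr6:83314705-83315929 and chr6:83316181-83317320 had peaks in no WT D0 list and in every WT D2 and D10 list.

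Tet3 windows at and beyond the midpoint fell. At chr6:83360001-83370000, which spans it, cover was 2585, 2452 and 1180 bp at D0, 402, 602 and 750 bp at D2, and 0 bp at D10 (D10 minus D0 -3.44, SE 0.37, limma adjusted p = 8.52e-05). Group means of this window were 2073, 585 and 0 bp, so that it passed the minimum only with D0, its highest day. Its D2 minus D0 difference was -1.49 (SE 0.37, limma adjusted p = 0.023) but 0.027 with all deposited peaks, and it was not called without WT D0 A or B or WT D2 A or B (limma adjusted p 0.0638 to 0.083). At chr6:83400001-83410000 cover was 0, 501 and 358 bp at D0, 2279, 2222 and 852 bp at D2, and 0 bp at D10. Its group means were 286, 1784 and 0 bp, so that it passed the minimum only through D2, the day on which it was high. The D2 minus D0 difference was 2.11 (SE 0.53, limma adjusted p = 0.0255, or 0.0398 with no filter), which was not called without WT D0 A (0.0656) or with all deposited peaks (0.0747), and without WT D2 A or B its cover was under the minimum. From D2 to D10 it fell by 3.21 (SE 0.53, limma adjusted p = 0.00112, or 0.00311 with no filter). In the full lists WT D10 A kept 772 bp in the former window and WT D10 B 238 bp in the latter.

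**Figure D4:**
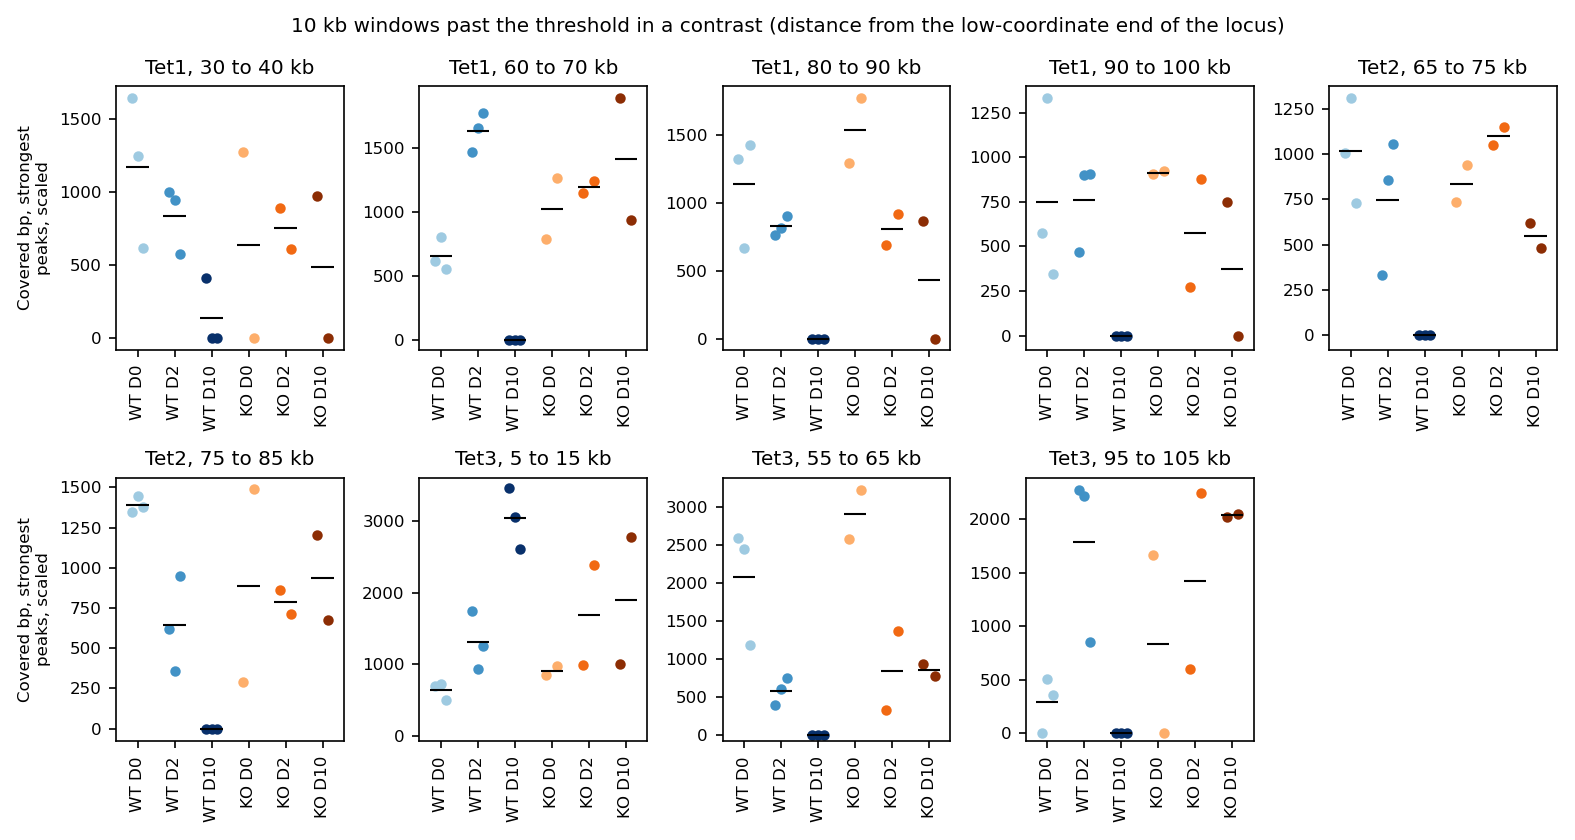
Scaled bp under the strongest peaks in the 9 windows of 10 kb called in a contrast, placed by distance in kb from the low-coordinate end of the locus. Points are libraries and bars are group means. WT D10 is at 0 bp in 7 of the 9 windows and between 2609 and 3461 bp in the Tet3 window that starts 5 kb from the end.

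Turnover was also counted region by region on the full lists, as peaks in all 3 libraries of one WT day and in none of the other. From D0 to D2, 14 of 107 regions of the loci with a peak on either day were gained and 2 lost, where 10.3% and 3.18% of all regions of the genome were. Of the 14, 8 lay at Tet3, 4 at Tet2 and 2 at Tet1. From D2 to D10, 2 of 115 were gained and 21 lost (4.17% and 16.9% of the genome). The lost regions were 7 at Tet1, 6 at Tet2 and 8 at Tet3. From D0 to D10, 5 of 95 were gained and 13 lost (8.47% and 11.6%). Regions that every WT library of the compared days shared numbered 13, 3 and 1 in these comparisons (9.8%, 4.93% and 1.72% of the genome). The shares of the loci lay near those of the genome. Among regions lost from D2 to D10, the highest -log10 p in any list was at chr3:133195038-133195721 of Tet2, with 51.9 in KO1 D10 and 49.9 in WT D2 B. Next came chr10:62347324-62348857 of Tet1, with 37.1 in WT D0 C and 34.98 in WT D2 A.

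These counts depended on the peaks and libraries used. With the strongest peaks alone there were 2 gains between D0 and D2 and 9 losses between D2 and D10. Leaving out 1 library also eases the rule, since fewer libraries must hold a peak. Without WT D10 C, the shortest list of the pre-iPSCs, the gains of D10 were 10 against D2 and 13 against D0. Leaving out WT D2 C gave 22 gains between D0 and D2. Leaving out WT D0 C gave 6 losses between D0 and D2 and 26 between D0 and D10.

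KO cells were then set against WT cells of the same day. At the scale of the whole locus no KO minus WT difference passed the test. On D10 KO1 and KO2 had 5931 and 3069 bp at Tet1, 3131 and 3741 bp at Tet2, and 5591 and 9519 bp at Tet3. Differences from WT were 0.43 (SE 0.40), 0.81 (SE 0.45) and 0.50 (SE 0.35), with limma adjusted p of 0.468, 0.218 and 0.341, and 10.3% of all rows were called higher and 6.94% lower. Tet1 had the opposite sign without KO1 D10 (-0.0192). On D0 and D2, 0% of 10481 loci and tiles were called in either direction by limma, although 922 and 981 had an unadjusted p under 0.05. No locus passed an interaction test of KO against WT over time either, where 2.85% of rows were called for D10 minus D0 and 2.88% for D10 minus D2 in either direction.

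Within the loci, KO cells on D10 kept cover where WT cells had none. Of 12 windows tested, 5 were called higher in KO and 0 lower, where 20.8% and 5.06% of 15744 windows of the genome were, with a median of 0.66. By limma 0 of the 12 were called on D0 (0.0381% of the genome higher, 0.0127% lower) and 0 on D2 (0% higher, 0.0254% lower), with 0 and 1 at an unadjusted p under 0.05. All 5 were windows in which every WT D10 library was at 0 bp by the strongest peaks.

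In the Tet1 window chr10:62320001-62330000, KO1 and KO2 had 783 and 1260 bp on D0, 1146 and 1235 bp on D2, and 1887 and 934 bp on D10. The KO values of D10 were in the range of those of D0 and D2 or above it. KO minus WT on D10 was 2.94 (SE 0.42, limma adjusted p = 0.000271). In the Tet2 window chr3:133190001-133200000, KO1 and KO2 had 1202 and 675 bp on D10 (2.47, SE 0.53, limma adjusted p = 0.00404), and in chr3:133180001-133190000 they had 617 and 481 bp (1.90, SE 0.47, limma adjusted p = 0.00881). In the Tet3 window chr6:83360001-83370000 they had 938 and 783 bp (2.40, SE 0.50, limma adjusted p = 0.00338), and in chr6:83400001-83410000 they had 2027 and 2054 bp (3.49, SE 0.82, limma adjusted p = 0.00667). Within run-name styles, KO1 minus WT B and KO2 minus WT C on D10 were 3.38 and 2.50 in the Tet1 window, 2.81 and 2.13 in chr3:133190001-133200000, and 3.48 and 3.49 in chr6:83400001-83410000. Every WT D10 library was at 0 bp there, so these values are the same whichever WT library is subtracted. They cannot check for an effect of run-name style. Without KO1 D10, 3 of the 5 were called, and chr3:133180001-133190000 and chr6:83400001-83410000 were not (limma adjusted p = 0.0575 and 0.0528). The Tet2 window of the pair was not called either with a pseudocount of 1000 bp (0.0511).

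The KO lines differed in other windows of Tet1. At chr10:62340001-62350000 KO1 had 867 bp and KO2 0 bp on D10 by the strongest peaks, and at chr10:62350001-62360000 KO1 had 748 bp and KO2 0 bp. In the full lists KO2 D10 had 454 and 364 bp in these windows, and WT D10 had none. At the site covered by the strongest peaks only in WT at D10, chr10:62270001-62280000, KO minus WT on D10 was -2.74 in the fit without a filter (SE 0.38, limma adjusted p = 0.000475). All pre-iPSC libraries but those of WT D10 were at 0 bp there, so its size equals that of D10 minus D2. The site was picked for this pattern, and the p-value is a description.

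Whether the change over time itself differed between KO and WT was tested as an interaction. For D10 minus D2, 2 of 12 windows passed, where 9.49% of the genome's windows were called higher and 1.68% lower. They were chr10:62320001-62330000 at Tet1 (3.34, SE 0.59, limma adjusted p = 0.00412) and chr6:83400001-83410000 at Tet3 (3.88, SE 1.16, limma adjusted p = 0.0436). The Tet3 window was not called when any 1 of 9 of its 10 libraries was left out (limma adjusted p 0.0524 to 0.141). For D10 minus D0, 2 of 12 passed (6.39% higher and 1.61% lower in the genome), the same Tet1 window (2.45, SE 0.59, limma adjusted p = 0.0222) and chr3:133190001-133200000 at Tet2 (3.27, SE 0.75, limma adjusted p = 0.0176). Both lost the call without KO1 D0 (adjusted p = 0.0528 and 0.0516) or without KO1 D10 (0.0697 and 0.0645). KO1 had 290, 860 and 1202 bp at the Tet2 window on D0, D2 and D10, and KO2 had 1488, 713 and 675 bp.

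Regions lost from WT between D2 and D10 were also read in the KO lists. They were chosen for having no WT D10 peak, so an excess of KO over WT D10 is built in. Of the 21 lost regions, KO1 had a peak in 9 on D0, 20 on D2 and 14 on D10, where 40.3%, 84.1% and 76.7% of all 39919 lost regions of the genome had one. KO2 had a peak in 10, 16 and 16 of them (42.7%, 62.3% and 53.6% of the genome). As shares of the 21, those of D10 were 66.7% for KO1, below the genome, and 76.2% for KO2, above it. The bp shared by a pair of lists were also taken as a percentage of all bp under a peak of at least one of them, over the 3 loci. KO1 D10 shared 32.4%, 41.4% and 9.52% on average with WT D0, D2 and D10. KO2 D10 shared 10.2%, 33.7% and 16.4%. WT libraries of the same day shared 41.4% at D0, 51.8% at D2 and 25.8% at D10, over 3 pairs each, and KO1 and KO2 shared 21.1% on D10. Over the whole genome the shares were near these, 28.1%, 42.1% and 9.71% for KO1 D10, and 12.1%, 31.7% and 15.9% for KO2 D10. Full lists of unequal length were compared.

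In the mESC lists the loci held few peaks, 15, 17 and 6 at 0, 12 and 72 hours. Tet1 held 7, 7 and 3, Tet2 3, 8 and 3, and Tet3 5, 2 and 0. Without replicates these are values only, and the lists are shorter than the pre-iPSC lists. Peaks on the low-coordinate side took 64.7%, 63.5% and 69.7% of the covered bp at Tet1, and 51.5%, 90.5% and 100% at Tet2. At Tet3 they took 76.6% and 44.4% at 0 and 12 hours. None of the 21 regions lost from WT between D2 and D10 had an mESC peak, where 13.3%, 5.52% and 0.511% of the genome's lost regions had one at 0, 12 and 72 hours. Of WT D10 peaks at the loci, 23, 20 and 6 of 92 overlapped a peak of the 0, 12 and 72 hour lists. For WT D2 peaks it was 29, 17 and 2 of 213, for WT D0 peaks 22, 12 and 0 of 137, and for KO D10 peaks 15, 12 and 3 of 114. As shares these were 25%, 21.7% and 6.52% of WT D10 peaks at the loci, where 9.94%, 19.3% and 15.8% of all WT D10 peaks of the genome overlapped the same lists. For WT D0 they were 16.1%, 8.76% and 0% against 10.1%, 6.76% and 1.90% of the genome, and for WT D2 13.6%, 7.98% and 0.939% against 11.5%, 10.3% and 3.43%. For KO D10 they were 13.2%, 10.53% and 2.63% against 10.8%, 10.3% and 4.02%. Peaks of different libraries at one site are not independent, and no test was made. Of the 23 merged regions with an mESC peak, 5 had no pre-iPSC peak, 4 of them at Tet2 and 1 at Tet1.

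Some sites had a peak in most lists. Besides the Tet3 region present in 17 lists, chr10:62295387-62297221 at Tet1 had a peak in 16 lists and chr10:62326500-62327208 in 15, each in mESC at 0 and 12 hours and in all KO lists. At Tet3, chr6:83407450-83408614 had a peak in 15 lists. At Tet2 the most shared region, chr3:133217492-133217898, had a peak in 12 lists, and its summits lay within 62 bp of each other. The sites at chr10:62326500-62327208, chr6:83407450-83408614 and chr3:133217492-133217898 had a peak in all 3 WT D0 lists but in only 1 of 3 WT D10 lists. In all, 29 of the 152 regions had a peak in at least 9 lists and 40 in 1 list alone.

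The loci were last set beside the rest of the genome by their pattern over the 15 pre-iPSC libraries, as a description. Among 10478 tiles of 100 kb, the tile most like Tet1 was chr11:117700001-117800000 (Pearson r 0.91), followed by chr2:72800001-72900000 (0.90). For Tet2 they were chr17:10000001-10100000 (0.92) and chr13:108400001-108500000 (0.90), and for Tet3 chr1:154100001-154200000 (0.88) and chr4:46600001-46700000 (0.83). Between the loci r was 0.62 for Tet1 with Tet2, -0.02 for Tet1 with Tet3 and -0.06 for Tet2 with Tet3. The points share libraries, list length and days.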

How the data were processed

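5hmC was measured by glucosyltransferase labelling, biotin capture and sequencing in 15 pre-iPSC and 3 mESC libraries; an input sample had no list here. Bowtie, SAMtools, MACS2 and the mm9 build are named, without roles or versions, in the submitters' processing notes. Each list is given under 1 sample, and its run names carry a p threshold of 0.0001, per the file headers. Whether the lists of WT B and KO1, with "All" in their run names, pool reads of several libraries is not given there. Of the deposited values, the score was not used, and the fold (a linear ratio) only broke ties in -log10 p when peaks were ranked. The -log10 p and -log10 q are the authors' own and served to rank and filter peaks within a list.

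Covered bp under the 55130 strongest peaks per pre-iPSC library (the shortest list on chromosomes 1 to 19 and X), scaled to the mean total, were tested as log2(covered bp + 200) in limma 3.58.1 (R 4.3.3; lmFit, eBayes with trend and robust) over the loci and 100 kb tiles, or over 10 kb windows, with a mean of at least 500 bp. P-values were Benjamini-Hochberg adjusted over all rows at 0.05. WT contrasts came from 9 libraries, KO contrasts and interactions from 15 in 6 groups. Named were all called windows, regions gained or lost, the 5 most shared regions per locus, each library's strongest peak and the 2 most similar tiles per locus; of these lists the text gives those that carry a comparison. Members and lists were chosen with earlier results of these data known. KO1 and KO2 pair the KO libraries, as the same line by title, but the main fit did not use this pairing. Their deviations from group means correlated by 0.37 to 0.47 between days. With 2 KO libraries a day the deviations of KO1 and KO2 mirror each other. The values thus show only a lasting difference between KO1 and KO2, which cannot be told apart from their run-name styles. Absolute depth was not used, so precision rests on the spread between libraries. On simulated data with 10562 rows for D10 against D0, limma recovered 10% of 100 rows changed by log2 1 and 62% of 100 changed by log2 2, with 5 false calls in all. Other genes of the pathway (such as Tdg and the Dnmt genes) need an mm9 annotation and were not analysed here, and no sequence was read.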

Additional observations from a re-analysis of the deposited data

Results flagged for a closer look

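Interaction tests over windows with enough cover gave 4 results in which the change over time differed between KO and WT cells. At the Tet1 window chr10:62320001-62330000 the KO change minus the WT change was 3.34 for D10 minus D2 and 2.45 for D10 minus D0. At the Tet2 window chr3:133190001-133200000 it was 3.27 for D10 minus D0. At the Tet3 window chr6:83400001-83410000 it was 3.88 for D10 minus D2. In the fit without a minimum, further interactions passed below it. They were -2.74 at chr10:62270001-62280000 of Tet1 for D10 minus D2 and for D10 minus D0 (limma adjusted p = 0.0174 and 0.0192). At Tet2 they were -3.17 at chr3:133130001-133140000 and 3.66 at chr3:133170001-133180000 for D10 minus D0 (limma adjusted p = 0.0322 and 0.0437). The values of the Tet1 site rest on strongest peaks in WT D10 alone, by which it was picked, and are a description. In that fit the Tet3 window was not called (limma adjusted p = 0.0723). All are log2(covered bp + 200) differences, from 3 WT and 2 KO libraries a day. In each of the first 3 windows every WT D10 library was at 0 bp by the strongest peaks, so that the size depends on the added 200 bp. The WT and KO changes share no libraries, but both D10 minus D2 and D10 minus D0 use the same D10 libraries. Shorter WT D10 lists (55134 to 86465 peaks, against 112303 and 111281 in KO1 and KO2 D10) moved with these results. With all deposited peaks and no scaling the first 4 differences were 3.09, 2.41, 3.92 and 3.16, each past the threshold. What part list length has in them was not tested. No group held 4 or more libraries, so none was examined for a library far from the rest.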

How the results depend on the processing

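Alternatives changed one choice at a time, except that those with all deposited peaks or with a -log10 q limit also dropped the scaling between libraries. At the scale of the locus, 136 of 153 values under other settings kept their direction and their side of the threshold. With all deposited peaks unscaled, D2 minus D0 changed sign at Tet2 (0.0756) and Tet3 (0.89), and calls were added for D10 minus D2 at Tet2 (-1.62) and Tet3 (-1.37), D10 minus D0 at Tet2 (-1.54) and KO minus WT on D10 at Tet2 (1.57). With peaks of -log10 q of at least 5 these were 0.0293 and 0.76, -1.96 and -1.68, -1.93, and 1.95, and D10 minus D0 at Tet1 (-1.28) and KO minus WT on D10 at Tet3 (1.65) passed as well. Tet1 D10 minus D2 (-0.93) was not called with no filter or from the 15-library fit (limma adjusted p = 0.0581 and 0.0598), and Tet2 D10 minus D0 was called with a pseudocount of 1000 bp (-0.76). Leaving out 1 library gave ranges of -1.18 to -0.54 for Tet1 D10 minus D2, -0.88 to -0.23 for Tet1 D10 minus D0 (called without WT D0 C), and -1.40 to -0.46 for Tet2 D10 minus D0 (called without WT D10 B). Signs changed within -0.23 to 0.16 (Tet3 D2 minus D0), -0.15 to 0.40 (Tet1 KO minus WT on D0), -0.82 to 0.35 (Tet3 KO minus WT on D2), -0.0192 to 0.89 (Tet1 KO minus WT on D10), -0.14 to 0.76 and -0.10 to 0.65 (Tet1 and Tet3, interaction D10 minus D0). The cause was not tested.

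Counts of called 10 kb windows moved as follows. For D2 minus D0, 1 was higher with all peaks, with the grid moved by 5 kb and with the replicate block, and 0 were lower with all peaks, with -log10 q of at least 5 and with the moved grid, against 2 with a pseudocount of 1000 bp and with no filter. For D10 minus D2, 0 were higher with all peaks or the q limit, 3 with no filter and 2 with the moved grid, and 13 were lower with all peaks or the q limit. For D10 minus D0, 3 were higher with no filter and 2 with the moved grid, and 11 were lower with all peaks, the q limit or no filter. For KO minus WT on D10, 10 were higher with all peaks and 9 with the q limit, and 1 was lower with no filter. For the interaction D10 minus D0, 6 were higher with all peaks, 7 with the q limit and 1 with a pseudocount of 1000 bp, and 2 were lower with no filter; for D10 minus D2, 6 were higher with all peaks or the q limit, and 1 higher and 1 lower with no filter. More windows passed the minimum with all peaks or no filter (26482 with all peaks, against 15782 with lists of equal length, for the WT days).

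Leaving out 1 library gave 0 to 2 windows higher and 0 to 2 lower for D2 minus D0, 5 (without WT D2 B) to 9 lower for D10 minus D2, 3 (without KO1 D10) to 7 higher and 0 to 1 (without KO2 D10) lower for KO minus WT on D10, and 0 to 2 (D10 minus D0) and 1 to 3 (D10 minus D2) higher for the interactions. Among windows, Tet3 chr6:83360001-83370000 D2 minus D0 changed sign with all peaks (0.027). Gained and lost regions with the strongest peaks alone were 2 and 4 for D2 minus D0, with 9 lost for D10 minus D2, and with the q limit 1 was gained for D10 minus D2. Their ranges on leaving out 1 library were 14 to 22 and 2 to 6 for D2 minus D0, 2 to 10 gained for D10 minus D2, and 5 to 13 and 13 to 26 for D10 minus D0. Neither WT letters nor KO lines were used as pairs in the main fit. The deviations of same-lettered libraries correlated by -0.06 to 0.06, which cannot show whether they shared a culture or a batch. The replicate block moved no count but that of windows higher for D2 minus D0, where Tet1 chr10:62320001-62330000 had a limma adjusted p of 0.0635. Signal depth was not used, so a peak missing from a short list cannot be told from 5hmC below its detection limit.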
